A study of Mus musculus with 8 samples.

Results

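The 43 genes described here carry out or time the copying of DNA in S phase. They load and activate the replicative helicase, polymerise DNA, clamp the polymerases to it, seal its fragments, supply its nucleotides, package it, and drive entry into S phase. They were chosen by symbol for these roles and not by a measured value, though with earlier results of these data known. All 43 were found among the 23282 named genes of the count table. RNA was sequenced from 2000 hematopoietic stem and progenitor cells (HSPCs) per sample, sorted from mouse bone marrow, in 4 samples labelled Hdc-/- on a C57BL/6 background and 4 from wild-type (WT) C57BL/6 mice. Hdc encodes histidine decarboxylase, which makes histamine, and the comparison asks how these cells differ without it. The labels name no other treatment and give no age, sex, sort marker, design of the altered allele, or whether each sample is 1 mouse. Because samples are bulk, fewer cells of a type and less RNA per cell cannot be told apart.

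Replication begins when the origin recognition complex, with Cdc6 and Cdt1, loads the ring of Mcm proteins onto DNA in G1. Cdc45 and the GINS complex then turn that ring into a working helicase, and the polymerases follow it, held to DNA by the ring-shaped clamp PCNA that replication factor C loads. Many of these genes are controlled by E2F factors, whose activity rises as cells leave G1. In bone marrow, stem cells are mostly quiescent and progenitors divide often, so transcripts of these genes are abundant in progenitors.

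Hdc itself went against the labels. It had 875, 773, 821 and 740 reads in libraries 1, 2, 3 and the unnumbered one labelled Hdc-/-, and 275, 199, 261 and 263 reads in WT 1 to 4. The log2 fold change of Hdc was 1.58 (SE 0.11), with an adjusted p of 6.4e-08 (edgeR, quasi-likelihood). A transcript from the altered allele would be included, since the table gives 1 count for each gene. Groups are named here as the labels have them, and each direction below rests on those labels.

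Libraries held 16327004 to 19780135 reads, and a single replication gene had between 236 and 22235 reads in a library. WT 1 stood apart from the other WT libraries: the chi-square statistic per gene was 23.5 to 27.6 for its pairs with them and 6.81 to 11.7 for every other pair within a group. Cell markers also differed between the groups. Of the HSPC markers 12 of 12 were tested, with 1 lower and 3 higher, and the stem cell antigen Ly6a fell from 255 to 115 CPM (read counts scaled to a common library size with TMM factors). All 10 neutrophil markers fell, with a summed level of 805 to 1408 CPM under the label Hdc-/- and 2644 to 4071 CPM in WT. Of 7 tested B cell markers 6 fell (summed 141 to 153 against 207 to 269 CPM), and 6 of 6 tested red cell markers rose (241 to 264 against 7.88 to 15.7 CPM). Of 6 tested mast cell and basophil markers 2 fell, with summed levels of 35.6 to 50.4 against 105 to 162 CPM. Of 2 tested T and NK cell markers 1 fell, Nkg7, which HSPCs can also express, and the summed levels were 260 to 275 against 324 to 413 CPM. The T cell markers Cd3e, Cd3d and Cd3g stayed at or near 0. None of 8 tested macrophage markers passed (83.6 to 94.1 against 50.8 to 70.0 CPM), nor did any of 3 tested stroma and endothelium markers (127 to 146 against 124 to 140 CPM). The part of these other cells in the values below was not tested.

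Promoter sequences were available from RefSeq (GRCm38.p6) for 35 of the 43 genes, in 41 windows from 250 bases before to 50 bases after a start. They were searched on both strands for the E2F words TTTCCCGC, TTTGGCGC, TTTCGCGC and TTTGCCGC, of which TTTGGCGC and TTTCGCGC can overlap on opposite strands. At least 1 word stood in 12 windows of 12 genes (29.3% of windows), against 2.26% of 32851 windows of all genes. The letters CCAAT stood in 61.0% of the replication windows and 37.4% of all windows. TTTGAA, the letters of the cell cycle genes homology region, stood in 7.32% and 17.9%. Shown here are 160 bases before the start of Pcna, the gene that fell, and of Cdc45, whose groups did not overlap. Those of Mcm6, Mcm5 and Cdc6, helicase and loading genes that carry E2F words, are shown as well. Of these genes only Pcna passed the test, and they were picked with their values known. Capitals mark the E2F words, which in Mcm6 and Mcm5 include an overlapping pair.
Pcna, chr2:132253181-132253340, minus strand: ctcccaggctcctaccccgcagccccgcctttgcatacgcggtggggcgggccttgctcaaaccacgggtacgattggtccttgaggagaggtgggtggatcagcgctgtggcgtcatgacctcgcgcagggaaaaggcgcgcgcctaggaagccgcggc
Cdc45, chr16:18811973-18812132, minus strand: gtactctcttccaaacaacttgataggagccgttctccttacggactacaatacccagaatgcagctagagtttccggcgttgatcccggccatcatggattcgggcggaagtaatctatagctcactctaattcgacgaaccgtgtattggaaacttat
Mcm6, chr1:128359706-128359865, minus strand: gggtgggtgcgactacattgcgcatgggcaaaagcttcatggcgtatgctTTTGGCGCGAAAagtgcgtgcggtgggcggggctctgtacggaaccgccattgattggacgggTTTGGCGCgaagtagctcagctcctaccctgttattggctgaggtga
Mcm5, chr8:75109349-75109508, plus strand: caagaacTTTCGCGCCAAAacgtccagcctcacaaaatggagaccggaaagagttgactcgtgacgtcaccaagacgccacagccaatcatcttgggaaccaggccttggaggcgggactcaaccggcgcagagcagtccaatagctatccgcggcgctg
Cdc6, chr11:98907991-98908150, plus strand: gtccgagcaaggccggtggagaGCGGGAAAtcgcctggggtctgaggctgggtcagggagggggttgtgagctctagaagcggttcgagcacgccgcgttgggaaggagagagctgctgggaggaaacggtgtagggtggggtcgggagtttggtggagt
The Pcna and Cdc45 stretches hold none of the 4 words, which says only that these letters are not in them. The 12 genes with a word (Cdc6, Cdt1, Lig1, Mcm3, Mcm5, Mcm6, Mcm7, Orc1, Pola1, Pold1, Rfc3 and Uhrf1) had log2 fold changes from -0.13 to 0.14, with a median of -0.03. The 23 genes with a window and no word had a range from -0.47 to 0.08 and a median of -0.13, and only Pcna among them passed. These are descriptions of the 2 sets and were not tested.

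In the libraries labelled Hdc-/-, 1 of the 43 replication genes fell, the clamp gene Pcna, by 27.9%, and none rose. The other 42 did not pass at an adjusted p under 0.05. All 43 passed the filter on low counts. Over the 13005 genes tested, 2.71% were called lower and 2.05% higher, so 1 lower call (2.33% of 43) is near the background. Most estimates lay slightly below 0: 38 of 43 log2 fold changes were negative (88.4%, against 49.1% of all genes), with a median of -0.11 (0.00 over all genes) and a range from -0.47 to 0.14. That median is a level 7.31% lower. An unadjusted p under 0.05 was reached by 10 of the 43, all lower (23.3%, against 9.46% of all genes in that direction and 18.7% in either direction).

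The estimates were tight as well as small. No replication gene reached a 1.5-fold change, against 7.14% of all genes. The 95% interval of the fold change lay inside 1.5-fold in both directions for 41 of 43 genes (95.3%, against 72.6% of all genes), the exceptions being Pcna and Rfc4. The median SE was 0.07 for these genes and 0.11 for all genes. Their within-group SD had a median of 0.0991 on the log2 scale, against 0.154 for all genes. The intervals of 10 genes lay wholly below 0 and those of 33 held 0. The 43 genes were also more abundant, with a median level of 136 CPM against 36.9 CPM for all genes. Nor did any gene reach 1.5-fold in the second replication list or the mitosis list described below. The median SEs of those lists were 0.08 and 0.07, and 98.4% and 90.9% of their intervals lay inside 1.5-fold. The part of transcript level in these spreads was not tested.

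**Figure D1:**
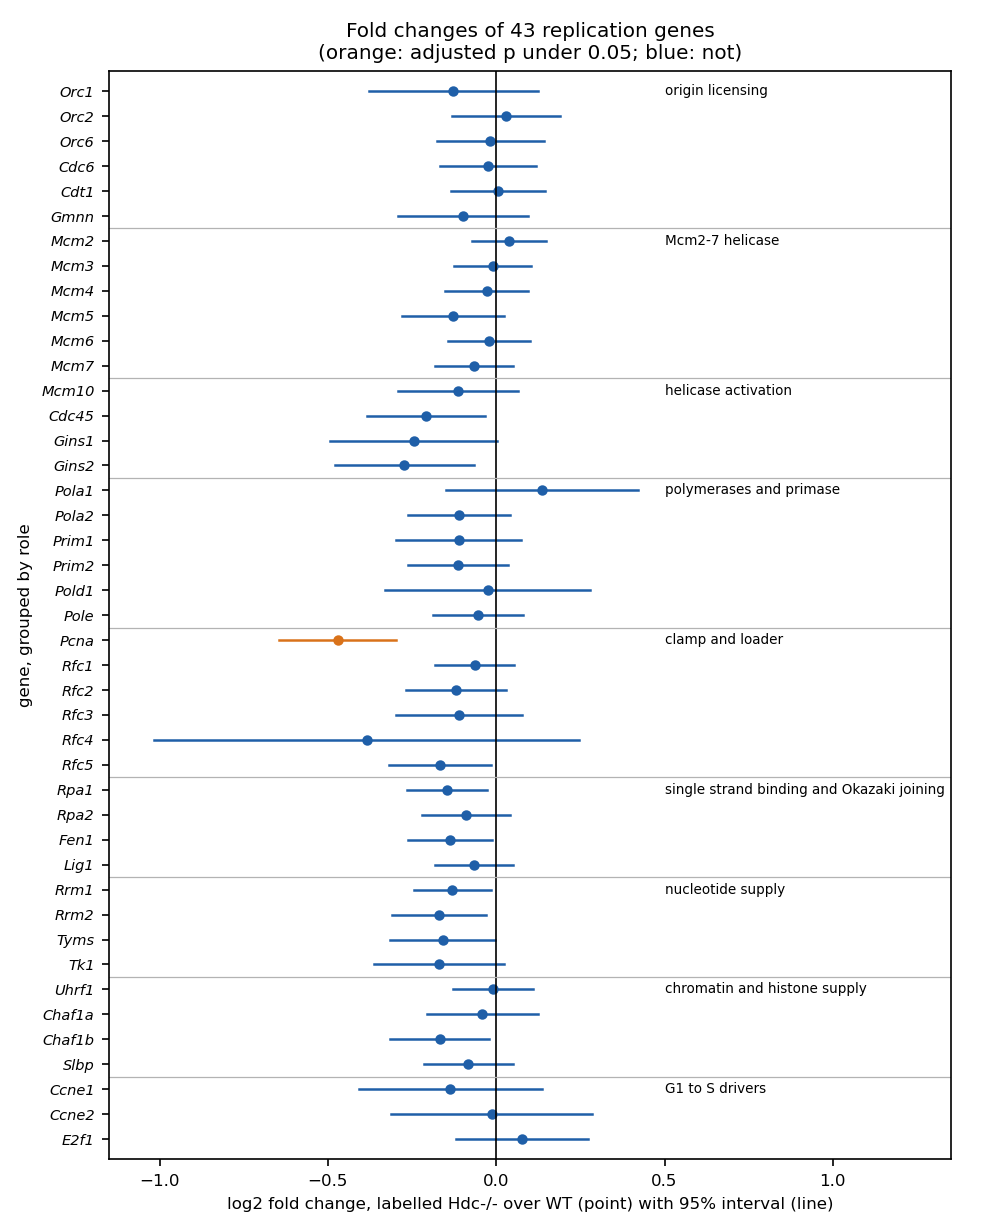
Log2 fold change of each of the 43 replication genes, libraries labelled Hdc-/- over WT, as a point with its 95% interval as a line, grouped by role. Pcna, at -0.47, is the only gene past an adjusted p of 0.05 (orange), and Rfc4 has the widest interval.

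Summed over the 43 genes, the level was 8541 ± 174 CPM for the label Hdc-/- and 9010 ± 143 CPM for WT (SD, n = 4). The 4 sums labelled Hdc-/- ran from 8371 to 8756 CPM and the 4 WT sums from 8822 to 9169 CPM, so the groups did not overlap. As a share of reads this was 0.855% ± 0.0167 against 0.898% ± 0.0147 (SD, n = 4). Singly, the groups did not overlap, with lower values in those labelled Hdc-/-, for 4 genes (9.30%, against 6.88% of all genes): Pcna, Rfc5, Gins2 and Cdc45. In no replication gene did they stand apart the other way, as 5.64% of all genes did.

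**Figure D2:**
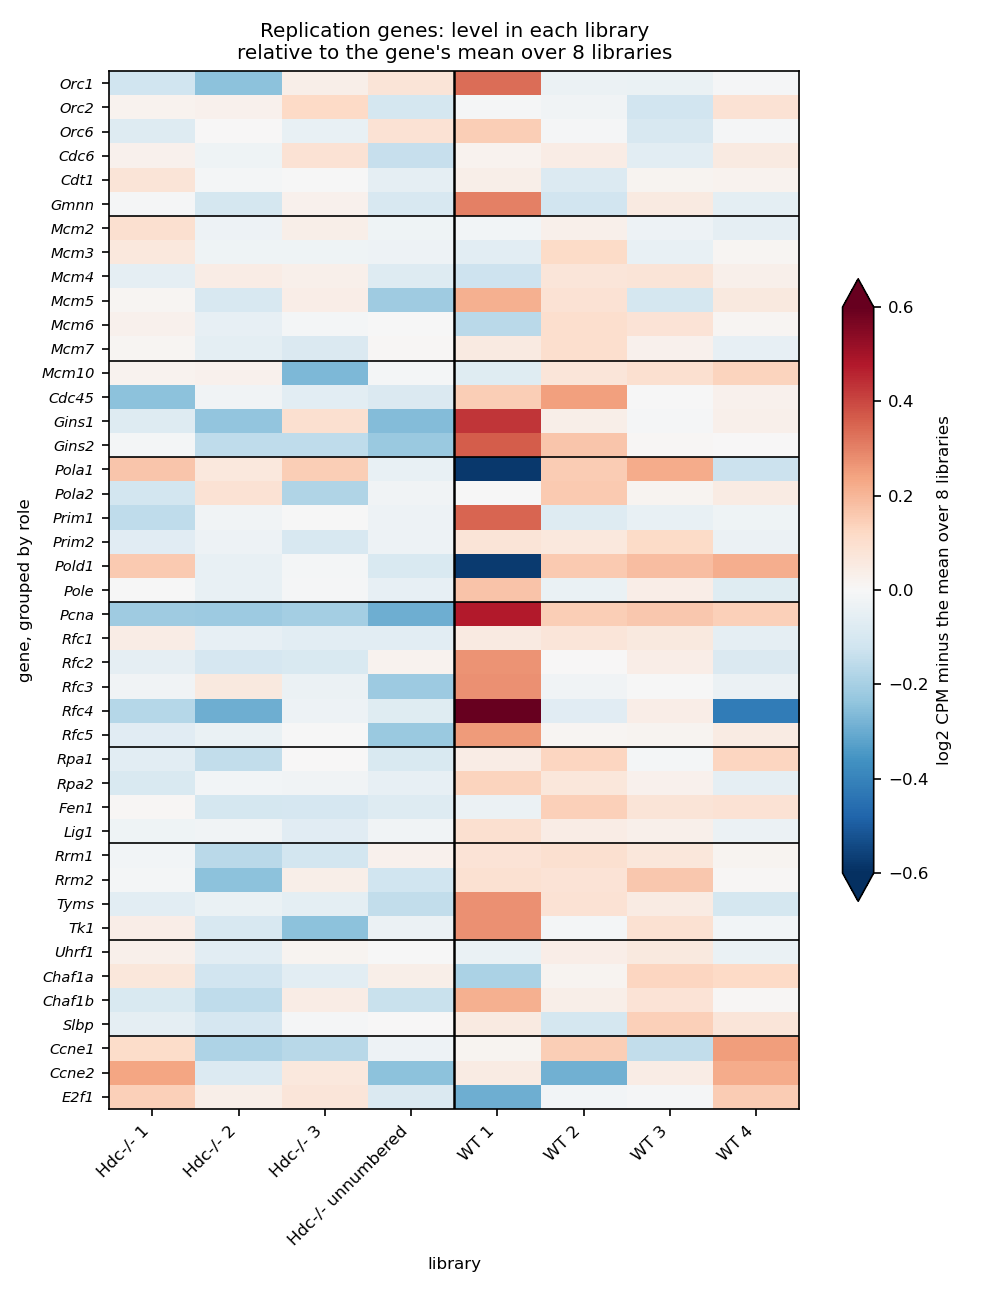
Level of each replication gene (rows, grouped by role) in each library (columns) as log2 CPM minus the gene's mean over the 8 libraries, red above and blue below that mean. The Pcna row is blue in all 4 libraries labelled Hdc-/- and red in all 4 WT libraries, and the WT 1 column holds the darkest cells of both colours.

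Below, levels in CPM are given in the order library 1, 2, 3 and unnumbered for those labelled Hdc-/-, and 1, 2, 3 and 4 for WT. Pcna encodes the sliding clamp that keeps the polymerases on DNA and recruits enzymes that join fragments and assemble chromatin. It stood at 85.3, 85.2, 85.8 and 80.9 CPM under the label Hdc-/- and at 138, 110, 111 and 109 CPM in WT. The highest library labelled Hdc-/- lay well below the lowest WT library, and within each group 3 libraries were nearly equal. The log2 fold change was -0.47 (SE 0.08, 95% interval -0.64 to -0.30, adjusted p = 0.00196), from a mean of 117 ± 14.0 to 84.3 ± 2.30 CPM (SD, n = 4). Without WT 1, the WT library with the highest value, it was -0.38 (SE 0.06, adjusted p = 0.00053), and it passed under all 17 alternatives tried. The mouse genome holds processed copies of Pcna, and how reads matching them were counted is not given, so its level is uncertain to that extent.

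Pcna lies on chromosome 2, as Hdc does, 73 tested genes away from it in the gene order of GRCm38.p6. Within 100 tested genes of Hdc on either side, 20 of 201 genes were lower and 22 higher, which is 20.9% called against 4.76% of all genes. Of the 10 tested genes on each side of Pcna, none was lower, 4 were higher, and the median log2 fold change was 0.13. Mcm8, a relative of the helicase genes that acts in recombination, is 5 tested genes beyond Pcna and had a log2 fold change of -0.26 (SE 0.12) and an adjusted p of 0.25. Outside the second replication list, the other replication genes on this chromosome lie further off, and none of them passed. Gins1 is at 130 and E2f1 at 171 tested genes on the same side as Pcna, and Mcm10 at -620 on the other. In the second list Dut is nearer to Hdc than Pcna is, at -11 tested genes. It had a log2 fold change of -0.09 (SE 0.07) and an adjusted p of 0.55. Samhd1 at 215, Top1 at 234, Ssrp1 at -211, Hat1 at -272 and Orc4 at -332 lie further off, and none passed. The part of the position of Pcna in its fall was not tested. The span of 100 genes and these neighbours were chosen after values had been seen.

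The other clamp and loader genes, which encode the 5 subunits of replication factor C, had smaller differences that did not pass, and all 6 estimates of the role were negative (median -0.14). Rfc5, a small subunit of the loader, had 160, 162, 167 and 143 CPM under the label Hdc-/- and 199, 168, 169 and 173 CPM in WT. The groups came within 2 CPM of each other without overlapping, and the log2 fold change was -0.17 (SE 0.07, adjusted p = 0.22), or -0.11 without WT 1. Rfc4, named here after its values were seen, had the estimate second to Pcna at -0.39 with an SE of 0.28. Its libraries labelled Hdc-/- held 54.2, 49.9, 59.8 and 58.1 CPM and its WT libraries 123, 58.4, 62.7 and 45.7 CPM. WT 1 held 2.22 times the mean of the other WT libraries, and without it the log2 fold change was -0.00 (SE 0.10). Rfc1, the large subunit, Rfc2 and Rfc3 had estimates from -0.12 to -0.06.

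Licensing genes differed little between the groups: none of 6 passed, and their median log2 fold change was -0.02. Orc1, the largest subunit of the origin recognition complex, had 23.4, 21.4, 26.0 and 26.7 CPM under the label Hdc-/- and 32.0, 24.7, 24.7 and 25.2 CPM in WT. Outside WT 1 the groups interleaved, and the log2 fold change was -0.13 (SE 0.12, adjusted p = 0.62). Gmnn, the inhibitor geminin that blocks Cdt1 after origins have fired, had 71.9, 67.2, 73.7 and 67.6 CPM against 89.2, 66.7, 74.9 and 69.3 CPM. Here too WT 1 alone was high, and the log2 fold change of -0.10 (SE 0.09, adjusted p = 0.62) became -0.00 without it. The loaders Cdc6 and Cdt1 and the complex subunits Orc2 and Orc6 had estimates from -0.03 to 0.03, each with an SE under 0.08.

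The Mcm2-7 genes, the subunits of the helicase ring, also had a median of -0.02, and none of 6 passed. Mcm5 had 442, 410, 451 and 378 CPM under the label Hdc-/- and 508, 465, 407 and 456 CPM in WT. The groups overlapped, and the log2 fold change was -0.13 (SE 0.07, 95% interval -0.28 to 0.02, adjusted p = 0.36). Mcm7 had 379, 360, 353 and 377 CPM against 390, 403, 383 and 363 CPM, with a log2 fold change of -0.07 (SE 0.05) and an adjusted p of 0.57. Mcm2, Mcm3, Mcm4 and Mcm6 had estimates from -0.03 to 0.04. Their 95% intervals reached at the lowest -0.153 (Mcm4) and at the highest 0.148 (Mcm2) on the log2 scale.

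Helicase activation was the role with the lowest median, -0.23 over 4 genes, of which none passed and 2 had an unadjusted p under 0.05. Gins2, a subunit of the GINS complex, had 46.5, 42.2, 42.1 and 40.2 CPM under the label Hdc-/- and 60.2, 52.5, 47.1 and 46.9 CPM in WT. The highest library labelled Hdc-/- came within 1 CPM of the lowest WT library, and the log2 fold change was -0.27 (SE 0.10, 95% interval -0.48 to -0.07, adjusted p = 0.13). Cdc45, the factor that joins GINS on the Mcm ring, had 59.6, 69.6, 67.7 and 66.5 CPM against 78.2, 83.8, 70.6 and 72.0 CPM. These groups too stood just apart, with a log2 fold change of -0.21 (SE 0.08, 95% interval -0.38 to -0.03) and an adjusted p of 0.18. Without WT 1 the estimates were -0.19 for both genes, -0.13 in place of -0.25 for Gins1, and -0.15 in place of -0.11 for Mcm10, which helps to open the helicase.

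**Figure D3:**
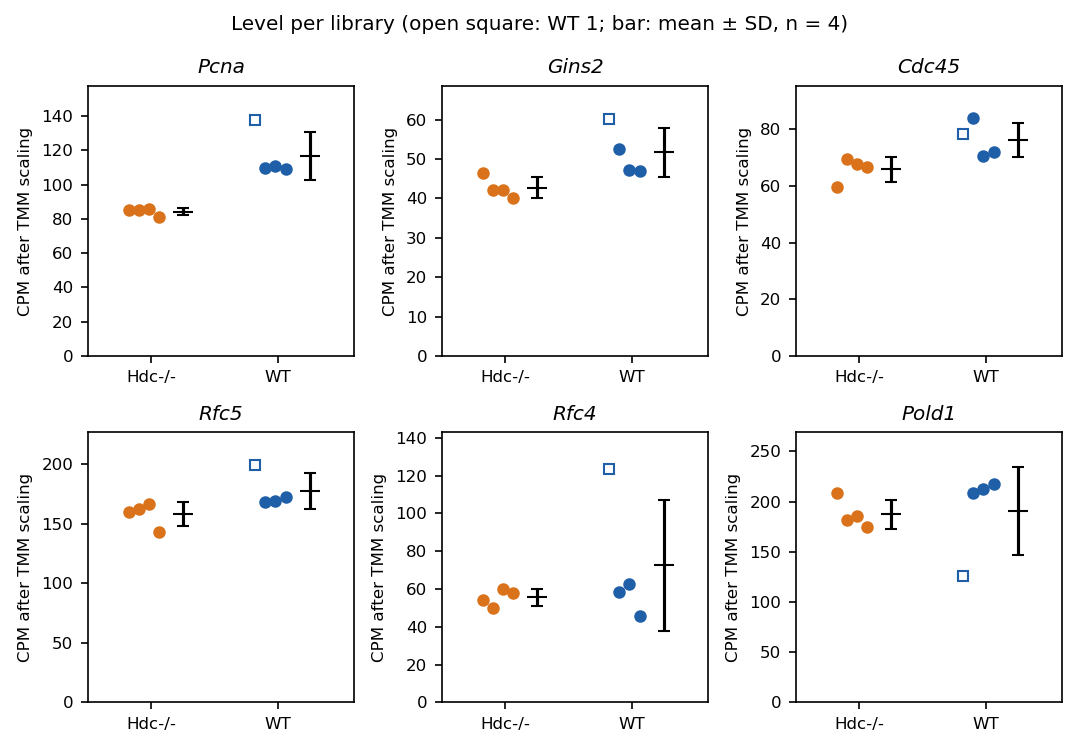
CPM of Pcna, Gins2, Cdc45, Rfc5, Rfc4 and Pold1 in each library labelled Hdc-/- (orange) and WT library (blue), with WT 1 as an open square and the mean ± SD (n = 4) as a bar. The groups do not overlap for the first 4 genes, while for Rfc4 and Pold1 WT 1 lies far from the other WT libraries, at 123 against 45.7 to 62.7 CPM and at 126 against 208 to 217 CPM.

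Of the 6 polymerase and primase genes none passed, and the median log2 fold change was -0.08. Prim2, the large primase subunit, had 76.0, 77.8, 74.4 and 77.8 CPM under the label Hdc-/- and 83.9, 83.1, 86.2 and 77.7 CPM in WT. WT 4 alone fell inside the other group, and the log2 fold change was -0.11 (SE 0.07, adjusted p = 0.42). Pola2, an accessory subunit of polymerase alpha, had 115, 132, 110 and 122 CPM against 124, 138, 126 and 129 CPM and the same log2 fold change of -0.11 (SE 0.07, adjusted p = 0.45). Pold1, the catalytic subunit of polymerase delta, and Pola1, that of polymerase alpha, are named after their values were seen, because WT 1 decided them. Pold1 had 208, 181, 185 and 175 CPM against 126, 208, 212 and 217 CPM, and its log2 fold change of -0.03 (SE 0.14) was -0.18 (SE 0.06, adjusted p = 0.078) without WT 1. Pola1 had 151, 140, 149 and 130 CPM against 89.8, 149, 157 and 123 CPM, and its estimate of 0.14 (SE 0.13), the highest of the 43, was -0.00 without WT 1. Pole, the catalytic subunit of polymerase epsilon, had -0.05, and Prim1, the small primase subunit, had -0.11, or -0.00 without WT 1.

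Genes that coat single strands and join Okazaki fragments had 4 negative estimates of 4, none past the threshold, with a median of -0.11. Rpa1, the large subunit of the protein that coats single-stranded DNA, had 322, 304, 337 and 316 CPM under the label Hdc-/- and 347, 368, 334 and 368 CPM in WT. Library 3 labelled Hdc-/- and WT 3 were the only pair out of order, and the log2 fold change was -0.15 (SE 0.06, adjusted p = 0.17). Fen1, the nuclease that trims flaps between fragments, had 247, 228, 229 and 233 CPM against 240, 272, 260 and 261 CPM. Its log2 fold change was -0.14 (SE 0.06, adjusted p = 0.21), and without WT 1, the lowest WT library for this gene, it passed at -0.17 (SE 0.05, adjusted p = 0.039). Rpa2 and the ligase gene Lig1 had -0.09 and -0.07.

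Nucleotide supply genes likewise had 4 negative estimates of 4, none past the threshold and 3 with an unadjusted p under 0.05, with a median of -0.16. Rrm2, the regulatory subunit of ribonucleotide reductase that rises in S phase, had 276, 235, 285 and 256 CPM under the label Hdc-/- and 297, 295, 312 and 280 CPM in WT. Rrm1, the large subunit of that enzyme, had 559, 506, 523 and 576 CPM against 599, 604, 593 and 572 CPM. In both genes 3 WT libraries exceeded every library labelled Hdc-/- and WT 4 did not. The log2 fold changes were -0.17 (SE 0.07, adjusted p = 0.17) for Rrm2 and -0.13 (SE 0.05, adjusted p = 0.20) for Rrm1. Tyms, which makes thymidylate, and Tk1, which salvages thymidine, had -0.16 and -0.17, or -0.09 and -0.10 without WT 1.

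Among the chromatin and histone supply genes none of 4 passed, and the median was -0.06. Chaf1b, a subunit of the assembly factor that places histones behind the fork, had 132, 127, 145 and 129 CPM under the label Hdc-/- and 164, 145, 149 and 142 CPM in WT. Only library 3 labelled Hdc-/- reached into the WT range, and the log2 fold change was -0.17 (SE 0.07, adjusted p = 0.20). Slbp, which binds the stem loop of histone mRNAs, had 209, 202, 216 and 217 CPM against 225, 202, 239 and 228 CPM and a log2 fold change of -0.08 (SE 0.06), with an adjusted p of 0.53. Chaf1a, from the same assembly factor, had -0.04, and Uhrf1, which brings the maintenance methyltransferase to new DNA, had -0.01.

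The G1 to S drivers had a median of -0.01, and none of 3 passed. Ccne1, a cyclin that activates Cdk2, had 18.7, 15.2, 15.5 and 16.9 CPM under the label Hdc-/- and 17.5, 19.2, 15.6 and 20.6 CPM in WT, with a log2 fold change of -0.14 (SE 0.13) and an adjusted p of 0.63. E2f1, one of the E2F factors, had 83.9, 77.8, 79.9 and 71.4 CPM against 62.0, 75.0, 75.6 and 84.4 CPM. The groups interleaved in both genes. The E2f1 estimate of 0.08 (SE 0.09, adjusted p = 0.72) was 0.00 without WT 1, its lowest library, and Ccne2, the second cyclin of this kind, had -0.01 (SE 0.14).

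WT 1 was the library in which these genes strayed most. Its median absolute log2 distance from the mean of the other 3 libraries of its group was 0.173 over the 43 genes, against 0.053 to 0.107 in the other 7 libraries. At least a 1.25-fold distance was found there in 9 genes: Rfc4, Gins1, Prim1, Orc1, Gmnn and Pcna were higher, and Pold1, Pola1 and E2f1 were lower. The other libraries had 0 to 2 such genes each. Without WT 1 the median log2 fold change of the 43 genes was -0.07 in place of -0.11, 38 were again negative, and 2 were called lower, Pcna and Fen1.

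Relative to exon length, the order of these transcripts spanned a wide range. In WT, Mcm6 had the highest level at 255 ± 20.3 CPM per kb of exon and Ccne2 the lowest at 5.61 ± 0.796 CPM per kb (SD, n = 4). After Mcm6 came Mcm3 at 181 ± 10.2, Rrm1 at 148 ± 3.56 and Rrm2 at 135 ± 5.93 CPM per kb. Mcm5, Mcm7 and Mcm2, at 133 ± 12.0, 130 ± 5.69 and 130 ± 3.20 CPM per kb, lay within their SDs of each other. Pcna stood at 77.0 ± 9.23 CPM per kb in WT and 55.5 ± 1.52 CPM per kb in the libraries labelled Hdc-/-. Near the bottom were Ccne1 at 9.12 ± 1.08 and Orc1 at 8.85 ± 1.18 CPM per kb in WT, which did not differ beyond their spread. Lengths are merged exons of a GRCm38 annotation, so these levels are approximate for counts made on mm9.

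A second list of 61 replication genes outside the 43, all tested, gave 3 lower and none higher. Of all genes 2.71% were called lower and 2.05% higher. In the second list 41 estimates were negative (67.2%, against 49.1% of all genes), and the median log2 fold change was -0.06. An unadjusted p under 0.05 was reached by 11 (18.0%), all lower, against 9.46% of all genes in that direction. Rbbp4, a histone-binding chaperone subunit shared by several chromatin complexes, had 438, 377, 369 and 363 CPM under the label Hdc-/- and 480, 458, 497 and 515 CPM in WT. It fell by 0.33 on the log2 scale (SE 0.07, adjusted p = 0.0052). Clspn, the fork protein claspin that relays checkpoint signals, had 36.6, 35.8, 30.6 and 35.6 CPM against 60.1, 41.6, 43.5 and 53.2 CPM. It fell by 0.52 (SE 0.12, adjusted p = 0.015), the largest fitted change among the genes of both replication lists. Ccna2, the cyclin of S and G2 phase, had 187, 173, 164 and 173 CPM against 209, 196, 206 and 223 CPM. It fell by 0.26 (SE 0.06, adjusted p = 0.026), and in all 3 genes the groups did not overlap. That held for 8 of the 61 genes, each lower under the label Hdc-/-, and for 6.88% of all genes in that direction. Of those with positive estimates, Top1, which relieves twist ahead of the fork, and the phosphatase gene Cdc25a had the smallest p, at 0.10 (SE 0.06) and 0.09 (SE 0.08), and neither passed. Without library 3 labelled Hdc-/- or without WT 4 only Rbbp4 passed, and without library 2 or the unnumbered library labelled Hdc-/- Ccna2 did not.

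Genes of mitosis are given for scale, since they act in the same dividing cells after replication. Of 22 tested, 10 fell, none rose, and all 22 estimates were negative, with a median of -0.30. Over all tested genes 2.71% were called lower and 2.05% higher, 49.1% of estimates were negative, and the median was 0.00. Bub1b, a spindle checkpoint kinase gene that also lies near Hdc on chromosome 2, went from 246 ± 12.6 to 164 ± 9.72 CPM (SD, n = 4). It fell by 0.58 (SE 0.06, adjusted p = 1.7e-05). Cdk1, the kinase that starts mitosis, went from 167 ± 13.2 to 127 ± 8.64 CPM (SD, n = 4) and fell by 0.40 (SE 0.07, adjusted p = 0.0028). Whether the 2 lists differ was not tested. In each of the 4 libraries labelled Hdc-/- the median deviation from the 8-library mean was below 0 for both lists and in each WT library above 0. It ran from -0.05 to 0.08 for the replication genes and from -0.20 to 0.20 for the mitosis genes. The mitosis count was 5 without WT 4 and 5 or 6 when library 2, library 3 or the unnumbered one of those labelled Hdc-/- was left out. Over all 17 alternatives it ran from 1, with the replicate block, to 15, with DESeq2.

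**Figure D4:**
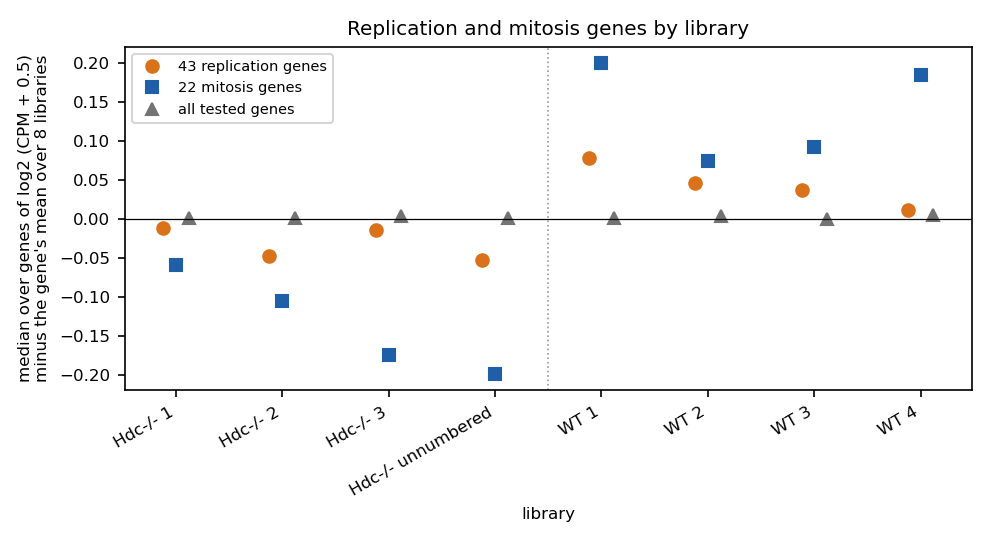
Median over genes of log2 (CPM + 0.5) minus the gene's mean over the 8 libraries, by library, for the 43 replication genes (circles), the 22 mitosis genes (squares) and all tested genes (triangles). Both lists lie below 0 in the libraries labelled Hdc-/- and above 0 in WT, with a wider range for mitosis genes, and all genes lie near 0.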

How the data were processed

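Per the labels' protocols, RNA was isolated with PicoPure, amplified with SMARTer Ultra Low Input reagents and made into Nextera XT libraries, which keep no strand. The submitters' processing notes name the build mm9 and, with no roles, HTSeq 0.6.1, TopHat2 2.0.4, Bowtie2 and bcl2fastq 1.8.4. These notes do not state the annotation, strand setting or counting mode, so overlapping genes and close copies carry uncertain values. What the authors deposited is raw read counts for each gene symbol without molecular identifiers, so counting error understates the uncertainty. Of 23284 entries, 2 named only by a number (at most 0.032% of reads) were left out. One column labelled Hdc-/- carries no replicate number that matches a sample title and is called unnumbered.

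Counts were tested with edgeR 4.0.16 in R 4.3.3 (TMM scaling, filterByExpr with minimum count 10 and total 15, robust quasi-likelihood fit, two-sided, no covariates), with Benjamini-Hochberg adjustment over 13005 genes and a threshold of 0.05. SE is the log2 fold change over the square root of F. Nothing in the labels makes each sample a separate mouse, and p-values then reflect only how these samples vary, which may be technical. Alternatives were RLE and upper-quartile scaling, other filters, DESeq2 1.42.0, limma 3.58.1 voom with and without weights, 1 surrogate variable (sva 3.50.0), a replicate block and each library left out. Scripts were tested on simulated data.

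The members and lists were chosen with earlier results of these data known. Of the 43 genes, those named by rule are past the threshold in edgeR, DESeq2 or voom or have 1 of the 2 smallest p in their role. Of the second list they are past the threshold in edgeR or have 1 of the 2 smallest p in a direction, and of the mitosis list they have the 2 smallest p. Of each marker list the rule names 2, and only those a result turns on are given. Others are said to be chosen after their values were seen.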

Additional observations from a re-analysis of the deposited data

Results flagged for a closer look

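In 14 of 86 sets of 4 libraries (43 genes in 2 groups), the highest or lowest library lay so far from the rest that its gap, as a share of the range, exceeded Dixon's 95% limit. Chance gives this in about 1 of 20 sets. WT 1 accounts for 7 of the 14: it was high for Orc1 (31.98 CPM), Gins1 (49.1 CPM), Prim1 (169.6 CPM), Pcna (137.9 CPM), Rfc3 (91.52 CPM) and Rfc5 (199.3 CPM), and low for Pold1 (125.5 CPM). The other WT sets were Cdt1, low in WT 2 (97.09 CPM), and Rfc1, low in WT 4 (278.5 CPM). Among the libraries labelled Hdc-/-, library 1 was high for Mcm3 (570.9 CPM) and Rfc1 (299.1 CPM), library 3 was low for Mcm10 (62.93 CPM) and Lig1 (226.5 CPM), and the unnumbered library was low for Pcna (80.88 CPM). Both groups of Pcna are among them. In each the other 3 libraries were nearly equal, and WT 1 also stood at 1.25 times the mean of its other 3.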

How the results depend on the processing

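Over 17 alternatives no gene chosen by the naming rule changed direction, and Pcna was called lower in all of them, with log2 fold changes from -0.50 to -0.38. The count of replication genes called lower was 2 with 1 surrogate variable, where Fen1 joined Pcna at an adjusted p of 0.032, and ran from 1 to 2 when each library was left out, 2 without WT 1. No alternative called one higher. Genes outside that rule changed sign without WT 1, Pola1 from 0.14 to -0.00 and Orc6 from -0.02 to 0.03, and genes outside it were followed only there. The median log2 fold change of the 43 genes was -0.072 with voom sample weights and -0.064 with 1 surrogate variable, and -0.11 to -0.071 with each library left out. In the second list the count lower was 0 with the replicate block, 1 to 3 with each library left out, and 4 with DESeq2, voom sample weights or 1 surrogate variable, where the histone chaperone gene Asf1b was also called. The block used libraries 1 to 3 of each group, and the correlations of same-numbered libraries were -0.067, -0.027 and -0.019, so the numbers are not taken as pairs. Under the block 189 of all genes were lower and 123 higher, Pcna alone of the 43 was called, and Bub1b alone of the mitosis genes. The count of all genes called higher was 449 with DESeq2, 428 with voom sample weights and 456 with 1 surrogate variable, against 267 in the fit reported. It was 175, 137 and 154 without library 2, library 3 and the unnumbered one labelled Hdc-/-, 170 without WT 2 and 382 without WT 1. The count lower ran from 242 to 433 with each library left out. Where a count moved, the cause was not tested, except that the block and each left-out library use fewer samples. With 4 libraries in each group, estimates of -0.27 (Gins2, SE 0.10) and -0.39 (Rfc4, SE 0.28) did not pass, while -0.26 (Ccna2, SE 0.06) did. No single size therefore marks what could be detected, and differences that did not pass are not shown to be absent.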
